A study of Mus musculus with 24 samples.

Results

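The corticotropin and thyrotropin releasing hormone systems were followed through 8 genes in the whole hypothalamus of hypertensive and normotensive mice. The genes were Crh, Ucn and Ucn3, which encode ligands, Crhr1 and Crhr2, which encode their receptors, Crhbp, which encodes a binding protein, and Trh and Trhr, a ligand and its receptor. They were chosen by symbol, as genes that a probe set of the array names alone, and all 8 were found among the 19937 genes measured. Each had 1 probe set.

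The mice were males of the inbred strains BPH/2J, which is hypertensive, and BPN/3J, which is normotensive. The 4 groups were BPH/2J and BPN/3J mice at 26 weeks of age and BPH/2J and BPN/3J mice at 6 weeks, with 6 mice in each. No RNA was pooled, the mice had no treatment beyond ordinary housing, and tissue was taken when blood pressure peaks in its daily cycle. The strains differ at many loci, so a strain difference belongs to no single allele. Each mouse had its own Affymetrix Mouse Gene 1.0 ST array, and the values are RMA values on a log2 scale, so that a difference of 1 is a doubling. In whole tissue, fewer cells of a type and less RNA per cell cannot be told apart.

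Corticotropin releasing hormone is made by neurons of the paraventricular nucleus and drives the pituitary to release corticotropin, which makes the adrenal gland release glucocorticoids. Urocortin and urocortin 3 are related peptides. Crhr1 is the main receptor for Crh, and Crhr2 prefers the urocortins. Urocortin is a ligand of both receptors, and urocortin 3 is selective for Crhr2. The binding protein takes up Crh and urocortin and keeps them from the receptors. Thyrotropin releasing hormone is a small peptide cut in several copies from the product of Trh, and neurons of the paraventricular nucleus release it to drive thyrotropin secretion through Trhr in the pituitary. Both peptides are also made in other neurons, where they act on arousal, feeding and autonomic outflow, blood pressure included.

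The sequences in front of 3 of these genes are shown because Trh had the largest strain difference and Ucn and Crhbp were the genes that passed a test. Each is the 250 bases before the start of the gene, 5′ to 3′ on the strand of the gene, from RefSeq on build GRCm38.p6, in which 6 of the 8 genes were matched by symbol. Trh is at chr6:92244651-92244900, Ucn at chr5:31138896-31139145 and Crhbp at chr13:95444832-95445081, all on the minus strand. Capitals mark letters that match a searched motif.
Trh: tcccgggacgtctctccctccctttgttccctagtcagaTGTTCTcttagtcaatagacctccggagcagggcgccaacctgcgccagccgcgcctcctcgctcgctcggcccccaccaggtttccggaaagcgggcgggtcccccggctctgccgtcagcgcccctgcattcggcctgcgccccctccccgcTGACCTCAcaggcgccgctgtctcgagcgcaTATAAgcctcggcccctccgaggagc
Ucn: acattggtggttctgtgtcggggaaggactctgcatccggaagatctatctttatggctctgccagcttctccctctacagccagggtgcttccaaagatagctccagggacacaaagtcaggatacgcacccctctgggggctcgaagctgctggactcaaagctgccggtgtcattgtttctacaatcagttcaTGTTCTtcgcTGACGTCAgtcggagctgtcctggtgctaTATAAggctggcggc
Crhbp: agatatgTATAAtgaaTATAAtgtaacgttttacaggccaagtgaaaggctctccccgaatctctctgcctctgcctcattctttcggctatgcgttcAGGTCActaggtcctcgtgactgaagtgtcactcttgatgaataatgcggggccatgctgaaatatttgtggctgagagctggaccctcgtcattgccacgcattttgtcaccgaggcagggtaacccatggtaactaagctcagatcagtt

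The motifs were searched on both strands: TGACGTCA, the full cyclic AMP response element, TGACCTCA, a variant of it, AGGTCA, the core of many nuclear receptor sites, TGTTCT, a part of the glucocorticoid receptor site, and TATAA, the core of a TATA box. The window of Ucn held TGACGTCA at bases -44 to -37 from the start, letters found in 1.55% of 32851 promoters of the same length. The window of Trh held TGACCTCA at bases -57 to -50, letters found in 1.94% of promoters, and this match includes AGGTCA on the other strand at bases -57 to -52. TGTTCT lay at bases -211 to -206 of Trh and at -54 to -49 of Ucn, against 16.1% of all promoters, and AGGTCA lay at -152 to -147 of Crhbp, against 14% of all. TATAA, present in 22.8% of promoters, lay at -26 to -22 of Trh, at -15 to -11 of Ucn and at -243 to -239 and -234 to -230 of Crhbp. These are matches of letters, and binding was not measured.

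Of 14 measured hypothalamus markers, 13 lay clear of the level of little signal, taken as the median of the unnamed probe sets, on every array. All 14 thalamus markers lay clear of it on every array too, so this level does not tell the tissues apart. Markers of neighbouring tissue differed between groups and between arrays. The marker lists were chosen with earlier results of these data known. At 6 weeks, where 7.42% of all genes were called between strains, all 14 of 14 thalamus markers were lower in BPH/2J and 9 of 14 hypothalamus markers higher. The thalamus list mean ran between 7.52 and 9.18 in BPH/2J, against 9.21 and 9.53 in BPN/3J. The hypothalamus list mean ran between 7.52 and 8.36 in BPH/2J and between 6.95 and 7.57 in BPN/3J. Replicate 2 of BPH/2J at 6 weeks had the highest thalamus mean of its group, 9.18, and the lowest hypothalamus mean, 7.52. Of 11 oligodendrocyte markers, 5 were lower in 6-week BPH/2J, with list means that averaged 9.62 in BPH/2J and 10.10 in BPN/3J. Between ages in BPN/3J, 5 of the 11 were lower at 26 weeks, where 7.66% of all genes were called lower. At 26 weeks, choroid plexus and ependyma markers ranged in list mean between 5.91 and 7.74 in BPH/2J and between 5.78 and 8.09 in BPN/3J, and cortex and striatum markers between 7.08 and 7.98 in BPH/2J and between 7.13 and 8.0 in BPN/3J. Replicates 5 and 6 of both strains at 26 weeks stood apart from the other 8 arrays of that age on a first principal component with 53.4% of the variance within groups, and values are given with and without this second set of arrays. What part these differences have in the results was not tested.

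Among the 8 genes Trh had the largest strain difference at both ages, with means of 8.85 in BPH/2J and 7.68 in BPN/3J at 26 weeks and of 9.34 in BPH/2J and 8.07 in BPN/3J at 6 weeks, but its adjusted p did not pass 0.05 at either age. Crhbp was lower at 26 weeks than at 6 weeks in BPH/2J, and Ucn was lower at 26 weeks than at 6 weeks in BPN/3J. Differences were tested with limma, a linear model for arrays, on all 24 arrays, and p-values were adjusted over all 19937 genes by the Benjamini-Hochberg method. Of the 8 genes, 0 passed in the strain comparison at 6 weeks, against 7.42% of all genes tested, and 0 at 26 weeks, against 2.67% of all genes. An unadjusted p below 0.05 was reached by 2 of the 8 at 6 weeks and 1 of the 8 at 26 weeks, against 18.1% and 12.5% of all genes. With array weights in limma, 2 of the 8 passed at 6 weeks, where 3725 of the 19937 genes did, and 0 at 26 weeks, where 549 did. The median difference of the 8 genes was -0.01 at 6 weeks and 0.05 at 26 weeks, beside 0.01 at both ages over all genes. At 26 weeks, where same-numbered arrays of the strains deviated together, a fit with the replicate number as a block called 958 genes in place of 532 and again 0 of the 8.

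**Figure D1:**
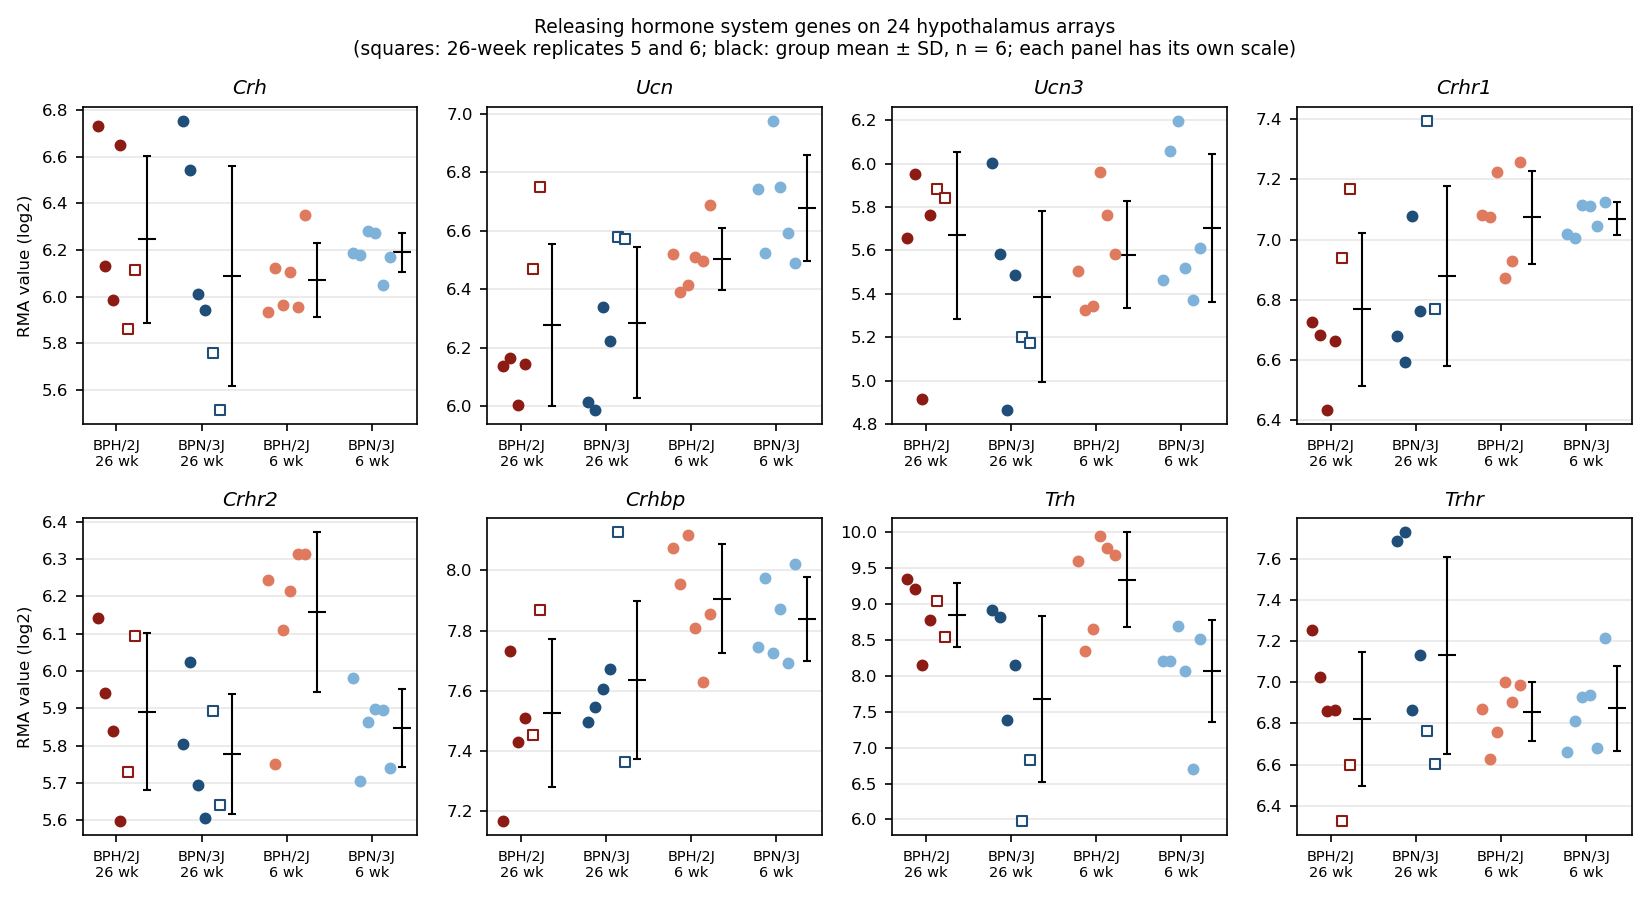
RMA values (log2, vertical axis, one scale per panel) of the 8 genes on each of 24 arrays, with the group mean ± SD (n = 6) in black and the second set of 26-week arrays as open squares. The 4 highest Trh values of the 6-week BPH/2J mice, 9.60 to 9.95, lie above all 6 BPN/3J mice of that age, and the second set of Ucn at 26 weeks lies above the first set in both strains.

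Crh, the ligand that heads the stress axis, lay above the level of little signal on all 24 arrays. In 26-week mice its value had a lowest, median and highest of 5.86, 6.12 and 6.73 in BPH/2J and 5.51, 5.98 and 6.75 in BPN/3J. In 6-week mice these values were 5.94, 6.03 and 6.35 in BPH/2J and 6.05, 6.18 and 6.28 in BPN/3J. The strains overlapped at both ages, and the spread was wider at 26 weeks, with SDs of 0.36 in BPH/2J and 0.47 in BPN/3J, against 0.16 and 0.08 at 6 weeks. The strain difference in Crh, BPH/2J minus BPN/3J, was 0.16 ± 0.16 (SE, adjusted p = 0.791 by limma) at 26 weeks and -0.12 ± 0.16 (adjusted p = 0.812 by limma) at 6 weeks. Between ages, 26 minus 6 weeks, it was 0.17 in BPH/2J and -0.10 in BPN/3J, and neither passed. The 2 highest 26-week values of either strain, 6.73 and 6.65 in BPH/2J and 6.75 and 6.54 in BPN/3J, all came from the first set of arrays, which averaged 6.37 in BPH/2J and 6.31 in BPN/3J, and the second set averaged 5.99 and 5.64 in the same strains.

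Ucn encodes urocortin, a ligand of both receptors that is best known from midbrain neurons. Its 26-week values had a lowest, median and highest of 6.00, 6.15 and 6.75 in BPH/2J and 5.99, 6.28 and 6.58 in BPN/3J. The 6-week values were 6.39, 6.50 and 6.69 in BPH/2J and 6.49, 6.67 and 6.97 in BPN/3J. In BPN/3J, Ucn was lower at 26 weeks by 0.39 on the log2 scale, with means of 6.29 ± 0.26 at 26 weeks and 6.68 ± 0.18 at 6 weeks (SD, n = 6 each, difference -0.39 ± 0.12 SE, adjusted p = 0.0314 by limma), a 1.31-fold difference. Lower genes made up 7.66% and called genes of either direction 12.3% of all genes in this comparison, and Ucn was 1 of the 8 to be called. The ages overlapped: the 4 first-set arrays of 26 weeks, at 5.99 to 6.34, lay below all 6 arrays of 6 weeks, and the 2 second-set arrays, both at 6.57 or 6.58, lay among them. In BPH/2J the first set of 26 weeks lay at 6.00 to 6.17, below all 6-week arrays, and the second set lay at 6.47 and 6.75.

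The call in Ucn held with the first set of 26-week arrays and not with the second, which has 2 arrays per strain. With 26-week arrays of the first set alone, 26 minus 6 weeks was -0.54 in BPN/3J (adjusted p = 9.22e-05 by limma) and -0.39 in BPH/2J (adjusted p = 0.00155 by limma), and with the second set alone it was -0.10 (adjusted p = 0.726 by limma) and 0.11 (adjusted p = 0.708 by limma) in the same strains. Of all genes the first set alone called 3357 lower in BPN/3J and 4153 in BPH/2J, in place of 1528 and 1722, and the second set alone 56 and 410. The sets were found from these same values, so these p-values are no separate test of the difference. With all arrays the difference in BPH/2J was -0.23 ± 0.12 (SE, adjusted p = 0.192 by limma). The call in BPN/3J was lost, at adjusted p up to 0.0916 by limma, when replicate 1, 2 or 4 at 26 weeks or replicate 1, 3 or 4 at 6 weeks was left out. With the choroid plexus list mean in the model the difference was -0.25 (adjusted p = 0.263 by limma), in a fit that called 177 of all genes lower in place of 1528. The 5 lower oligodendrocyte markers moved in the same comparison, and their part was not tested. Between strains Ucn differed by -0.01 ± 0.12 at 26 weeks and -0.18 ± 0.12 at 6 weeks (SE), and neither passed.

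Ucn3 encodes urocortin 3, a ligand selective for Crhr2 that is made in the rostral perifornical hypothalamus of rodents. On 1 of 24 arrays, replicate 6 of BPN/3J at 26 weeks, it was below the level of little signal, and no other of the 8 genes was below it on any array. That level was 5.25 on this array, against 4.6 to 4.85 on the others, and Ucn3 itself, at 5.17, was higher there than on the 2 arrays with its lowest values, 4.91 and 4.87. The lowest, median and highest values at 26 weeks were 4.91, 5.80 and 5.95 in BPH/2J and 4.87, 5.35 and 6.00 in BPN/3J. At 6 weeks they were 5.32, 5.54 and 5.96 in BPH/2J and 5.37, 5.57 and 6.19 in BPN/3J. The strains overlapped throughout, and the difference, BPH/2J minus BPN/3J, was 0.28 ± 0.18 at 26 weeks and -0.12 ± 0.18 at 6 weeks (SE), with adjusted p of 0.58 and 0.827 by limma. The change of that difference with age was 0.41 ± 0.26 (SE, adjusted p = 0.612 by limma). With the paraventricular list mean in the model, Ucn3 at 6 weeks was lower in BPH/2J by 0.48 (-0.48, adjusted p = 0.00411 by limma). That list holds Avp and Oxt, and Ucn3 followed its mean, with Pearson's r of deviations from group means of 0.89 over 24 arrays. The covariate was chosen after seeing the data, so this p is no separate test of a strain difference. Of all genes the fit called 292 higher and 538 lower, in place of 597 and 882.

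The receptor Crhr1 had 26-week values with a lowest, median and highest of 6.44, 6.70 and 7.17 in BPH/2J and 6.59, 6.77 and 7.39 in BPN/3J. At 6 weeks they were 6.87, 7.08 and 7.26 in BPH/2J and 7.0, 7.08 and 7.13 in BPN/3J. The strains differed by 0.00 ± 0.12 at 6 weeks, with a 95% interval of -0.23 to 0.24. At 26 weeks the strain difference was -0.11 ± 0.12 (SE). Between ages, Crhr1 differed by -0.30 ± 0.12 in BPH/2J (SE, adjusted p = 0.0705 by limma) and by -0.19 ± 0.12 in BPN/3J (SE, adjusted p = 0.276 by limma). All 4 first-set arrays of BPH/2J, at 6.44 to 6.73, lay below all 6-week arrays of the strain, and the second set lay at 6.94 and 7.17. With the first set alone Crhr1 was lower at 26 weeks in BPH/2J, with a difference of -0.45 (adjusted p = 0.000447 by limma), and in BPN/3J, with -0.29 (adjusted p = 0.0139 by limma), and with the second set alone the values were -0.02 and 0.01. The first set alone called 4153 of all genes lower in BPH/2J and 3357 in BPN/3J, in place of 1722 and 1528.

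Crhr2, the receptor that prefers the urocortins, came as close to the threshold as Trh in the strain comparison at 6 weeks. Its 6-week values had a lowest, median and highest of 5.75, 6.23 and 6.31 in BPH/2J and 5.71, 5.88 and 5.98 in BPN/3J. In 5 of 6 BPH/2J mice, at 6.11 to 6.31, Crhr2 lay above all 6 BPN/3J mice, and replicate 2 alone, at 5.75, lay among them. The difference was 0.31 ± 0.10 (SE, adjusted p = 0.0561 by limma), and without replicate 2 it was 0.39 (adjusted p = 0.00508 by limma). Replicate 2 was singled out by its low value of this gene, so the second p is no separate test. The fit without it called 813 of all genes higher and 1148 lower, in place of 597 and 882. With each of the 24 arrays left out in turn, Crhr2 was called in 4 fits, at adjusted p of 0.00508 to 0.134 by limma. Replicate 2 is the mouse with the thalamus list mean of 9.18. Crhr2 moved with the pituitary markers of these arrays, whose list mean was 5.12 to 5.86 in BPH/2J and 5.10 to 5.38 in BPN/3J at 6 weeks: Pearson's r of deviations from group means was 0.88 over the 12 arrays of that age and 0.61 over all 24. Of 11 measured pituitary markers, prolactin (Prl) was at or below the level of little signal on all arrays. Pomc, which hypothalamic neurons also make, was the 1 called at 6 weeks, where 7.42% of all genes were called.

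At 26 weeks Crhr2 had a lowest, median and highest of 5.60, 5.89 and 6.14 in BPH/2J and 5.61, 5.75 and 6.02 in BPN/3J, and the strains overlapped. The strain difference was 0.11 ± 0.10 (SE, adjusted p = 0.733 by limma), and its change with age was -0.20 ± 0.14 (SE, adjusted p = 0.676 by limma). In BPH/2J, 26 minus 6 weeks was -0.27 ± 0.10 (SE, adjusted p = 0.0647 by limma), and in BPN/3J it was -0.07 ± 0.10 (SE).

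Crhbp, the secreted protein that binds Crh and urocortin, was lower in older BPH/2J mice. Its value had a lowest, median and highest of 7.17, 7.48 and 7.87 at 26 weeks and 7.63, 7.90 and 8.12 at 6 weeks in this strain. In 4 of 6 mice of 26 weeks Crhbp lay below all 6 mice of 6 weeks. The means were 7.53 ± 0.25 at 26 weeks and 7.91 ± 0.18 at 6 weeks (SD, n = 6 each), a difference of -0.38 ± 0.12 (SE, adjusted p = 0.0255 by limma) or 1.30-fold. In this comparison 16.9% of all genes passed, 8.64% in the lower direction, and Crhbp was 1 of the 8 to pass, so the share of members called was close to that of all genes. In BPN/3J, Crhbp had a lowest, median and highest of 7.36, 7.58 and 8.13 at 26 weeks and 7.69, 7.81 and 8.02 at 6 weeks, with a difference of -0.20 ± 0.12 (SE, adjusted p = 0.245 by limma). That the fall differed between strains was not shown: the interaction was -0.18 ± 0.16 (SE, adjusted p = 0.773 by limma).

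The Crhbp difference between ages in BPH/2J varied with the arrays and covariates taken along. It was -0.45 with the first set of 26-week arrays (adjusted p = 0.0015 by limma) and -0.25 with the second set (adjusted p = 0.474 by limma). Of all genes 4153 were called lower with the first set and 410 with the second, in place of 1722. The call was lost, at adjusted p up to 0.0769 by limma, when replicate 1, 3 or 4 at 26 weeks or replicate 1 or 3 at 6 weeks was left out. Thalamus markers were higher at 26 weeks in this strain in 13 of 14 cases, and with their list mean in the model the difference was -0.08 (adjusted p = 0.865 by limma). That fit called 4 of all genes higher and 4 lower, in place of 1640 and 1722, so the lost call is not particular to Crhbp. What part the markers have was not tested. Between strains Crhbp differed by -0.11 ± 0.12 at 26 weeks and 0.07 ± 0.12 at 6 weeks (SE).

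Trh, the precursor of thyrotropin releasing hormone, spread more than any other of the 8 genes. At 6 weeks its value had a lowest, median and highest of 8.35, 9.64 and 9.95 in BPH/2J and 6.70, 8.21 and 8.69 in BPN/3J. The groups overlapped through 2 BPH/2J mice, at 8.35 and 8.66. The difference was 1.27 ± 0.41 (SE, adjusted p = 0.0562 by limma), or 2.41-fold with a 95% interval of 1.35 to 4.30. At 26 weeks the values were 8.16, 8.91 and 9.35 in BPH/2J and 5.98, 7.76 and 8.91 in BPN/3J. The difference there was 1.17 ± 0.41 (SE, adjusted p = 0.158 by limma), or 2.25-fold with a 95% interval of 1.26 to 4.01, and it differed from the 6-week difference by -0.10 ± 0.57 (SE, adjusted p = 0.976 by limma).

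The 26-week values of Trh were also compared within each set of arrays. In the first set Trh averaged 8.87 in BPH/2J and 8.32 in BPN/3J, a difference of 0.56 (adjusted p = 0.643 by limma). In the second set, of 2 arrays per strain, it averaged 8.79 in BPH/2J and 6.41 in BPN/3J, a difference of 2.39 (adjusted p = 0.0368 by limma). These differences were not shown to differ from each other, at 1.83 ± 0.70 (SE, adjusted p = 0.586 by limma). The sets were found from these same values, so the p-values within sets are no separate test. Of all genes the second set alone called 138 higher and 145 lower, in place of 264 and 268. In that set the paraventricular list mean was 7.47 in BPH/2J and 6.94 in BPN/3J, and its part was not tested. Between ages Trh differed by -0.49 ± 0.41 in BPH/2J and -0.39 ± 0.41 in BPN/3J (SE), and neither passed.

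Trh followed the hypothalamic and paraventricular genes of each array. Pearson's r of deviations from group means was 0.85 with the mean of 9 paraventricular genes and 0.86 with the mean of 14 hypothalamus markers over 24 arrays, and 0.83 and 0.86 over the 12 arrays of 6 weeks. The 9 genes were the transcription factors Sim1, Otp, Pou3f2, Arnt2 and Sim2, the peptides Avp and Oxt, and the receptors Brs3 and Mc4r, and Sim1, Otp, Avp and Oxt are in the hypothalamus list too. Their list mean at 6 weeks was 7.71 ± 0.24 in BPH/2J and 7.43 ± 0.24 in BPN/3J, and at 26 weeks 7.46 ± 0.22 and 7.18 ± 0.28 in the same strains (SD, n = 6). With this mean in the model the strain difference in Trh at 6 weeks was 0.48 (adjusted p = 0.366 by limma), and with the hypothalamus mean it was -0.46 (adjusted p = 0.698 by limma), a turn of direction. Both covariates were chosen after seeing the data. Of all genes the paraventricular fit called 292 higher and 538 lower and the hypothalamus fit 68 and 138, in place of 597 and 882. In this comparison 9 of 14 hypothalamus markers were themselves higher in BPH/2J, and their part was not tested. With the thalamus mean in the model the Trh difference was 1.29 (adjusted p = 0.714 by limma), in a fit that called 59 of all genes higher and 85 lower. At 26 weeks it was 0.42 with the paraventricular mean and 0.45 with the hypothalamus mean. Points share arrays and dissections, so these correlations are descriptions.

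**Figure D2:**
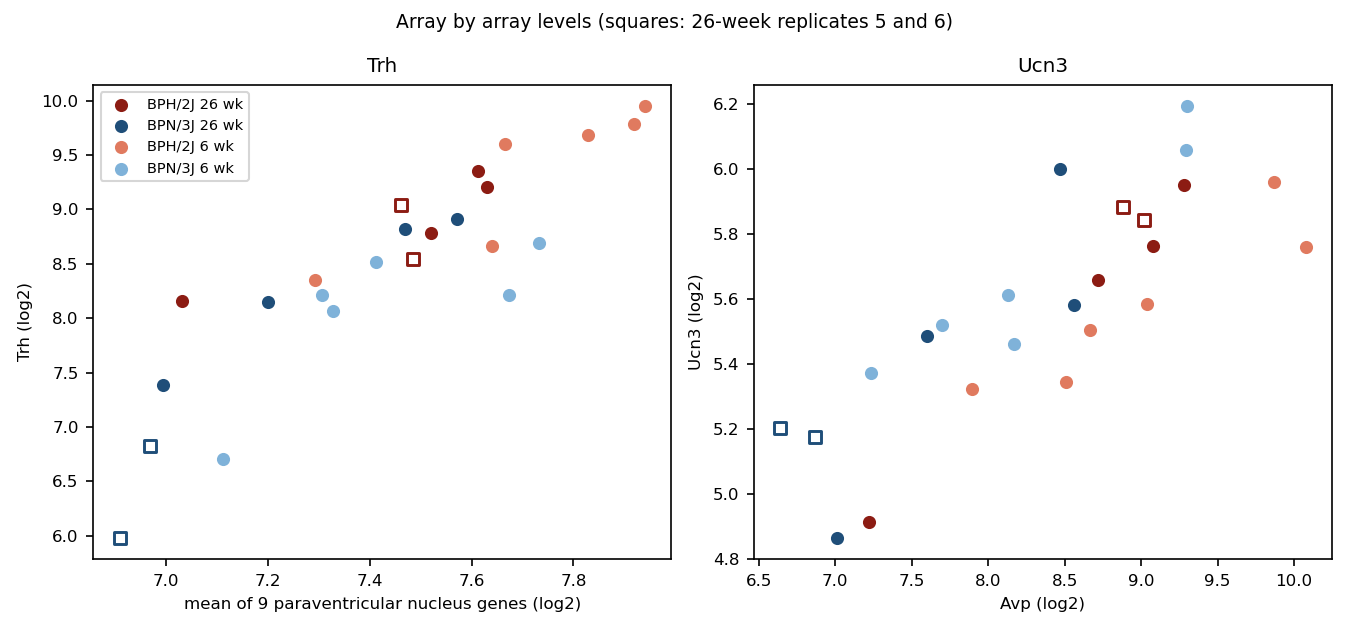
Left, Trh (log2) against the mean of 9 paraventricular genes (log2), and right, Ucn3 (log2) against Avp (log2), with 1 point per array, coloured by group and open squares for the second set of 26-week arrays. Both genes rise with the horizontal axis in all 4 groups, and the 2 second-set BPN/3J arrays lie at the low end of both axes in the left panel.

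The 6-week strain difference in Trh and in Crhr2 sat at the threshold and moved across it with the setting. Trh was called in 9 of 16 alternatives and Crhr2 in 8 of 15. Both counts include the term for the second set, the first set only, the second set only and the block among arrays of older mice. These alternatives were chosen after seeing the data and changed the handling of older mice alone. They left the 6-week differences at 1.27 in Trh and 0.31 in Crhr2, so their calls are no separate test of these differences. When only the 12 arrays of 6 weeks were fitted, the adjusted p by limma was 0.0199 for Trh and 0.0334 for Crhr2. Leaving out replicate 2 of BPH/2J, which has the lowest Trh value of its group, gave a Trh difference of 1.47 (adjusted p = 0.0225 by limma). Leaving out 1 array of any group gave differences between 1.00 and 1.47, at adjusted p of 0.0225 to 0.174 by limma. Trh was called in 5 of these 24 fits.

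**Figure D3:**
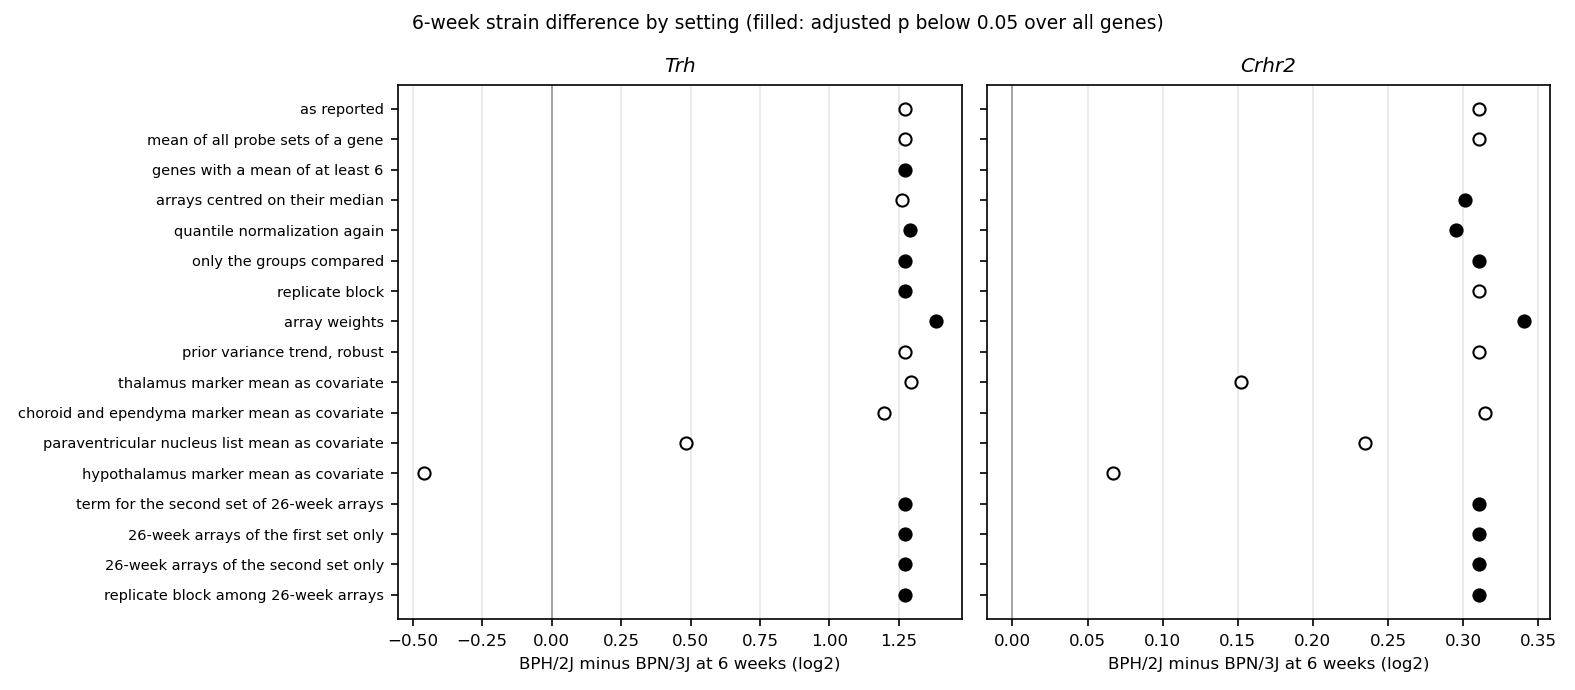
Strain difference at 6 weeks (BPH/2J minus BPN/3J, log2) in Trh and Crhr2 under each processing setting, with filled points where the adjusted p was below 0.05. The points of Trh stay between 1.20 and 1.38 except with the paraventricular and hypothalamus means as covariates, at 0.48 and -0.46.

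Trhr, the receptor of the thyrotropin releasing hormone peptide, had the opposite order of strains to Trh at 26 weeks. Its lowest, median and highest values were 6.33, 6.86 and 7.25 in BPH/2J and 6.60, 7.0 and 7.73 in BPN/3J. At 6 weeks they were 6.63, 6.89 and 7.0 in BPH/2J and 6.66, 6.87 and 7.22 in BPN/3J. The 2 highest arrays of 26 weeks, at 7.69 and 7.73, were both BPN/3J, and the rest of that group lay within the range of BPH/2J. The strain difference was -0.31 ± 0.17 at 26 weeks (SE, adjusted p = 0.472 by limma) and -0.01 ± 0.17 at 6 weeks (SE, adjusted p = 0.98 by limma). Like Crh, it was lower on the second set of arrays: 7.0 in the first set and 6.46 in the second in BPH/2J, and 7.35 and 6.68 in BPN/3J. With the hypothalamus mean in the model the 26-week difference was -0.53 (adjusted p = 0.0352 by limma). Trhr followed that mean, with r of 0.68 over 24 arrays. The covariate was chosen after seeing the data, so this p is no separate test. Of all genes the fit called 221 higher and 263 lower, in place of 264 and 268.

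**Figure D4:**
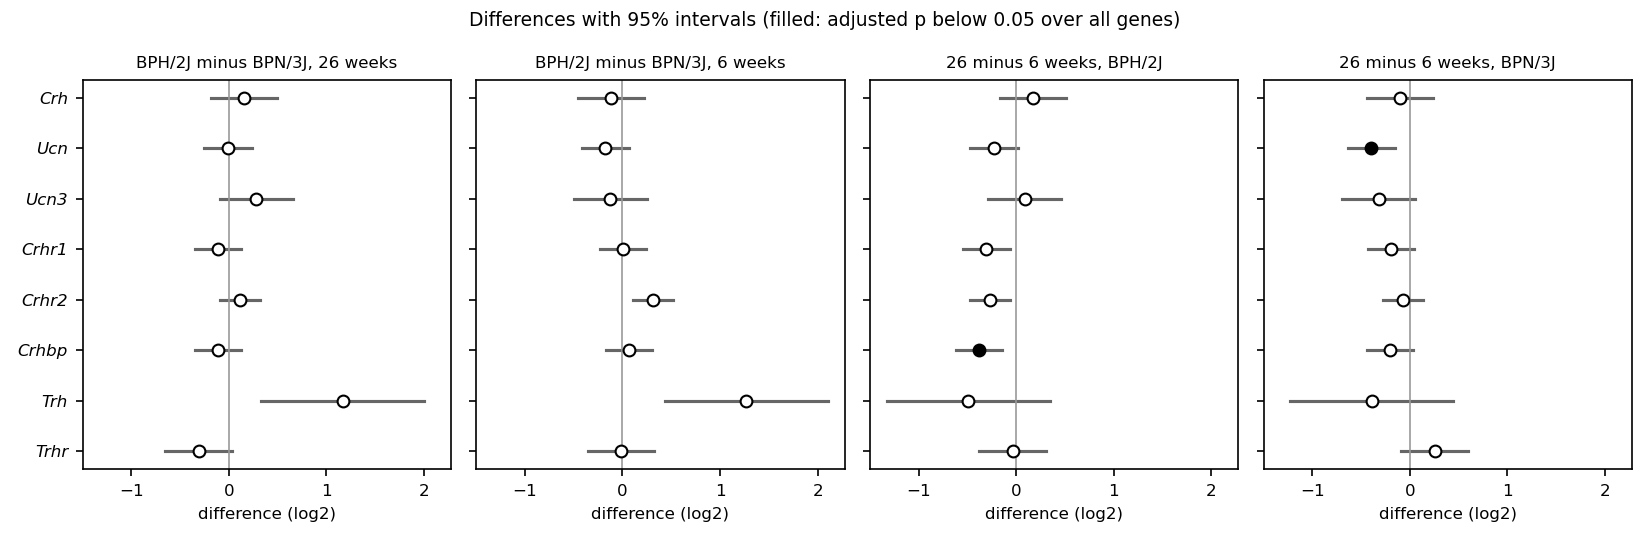
Differences (log2, horizontal axis) of the 8 genes in 4 comparisons with 95% intervals, filled where the adjusted p was below 0.05. The filled points are Crhbp between ages in BPH/2J, at -0.38, and Ucn between ages in BPN/3J, at -0.39, and Trh has the widest intervals.

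The order of the 4 group means was not settled for any of the 8 genes, since each pair of neighbours in the order overlapped. Trh ran from 9.34 in 6-week BPH/2J through 8.85 in 26-week BPH/2J and 8.07 in 6-week BPN/3J to 7.68 in 26-week BPN/3J. Crhbp was highest in 6-week BPH/2J, at 7.91, followed by 6-week BPN/3J at 7.84, 26-week BPN/3J at 7.63 and 26-week BPH/2J at 7.53. Crhr1 and Ucn likewise had both 6-week groups above both 26-week groups. The interaction of strain and age passed for 0 of the 8 genes, against 0.0301% of all genes, and 0 of the 8 had an unadjusted p below 0.05 in it, against 10.8% of all genes. With array weights 0 of the 8 passed after adjustment, where 683 of all genes did.

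Spread between mice of a group set these genes apart from most of the array. The pooled SD within groups was 0.79 for Trh, at the 99.9th percentile of all genes, against a median of 0.16 over all genes. Ucn3, Trhr and Crh followed with 0.35, 0.32 and 0.31, at percentiles 97.7, 96.7 and 96.4. Ucn, Crhbp and Crhr1 lay between the percentiles 81.3 and 83.0, and Crhr2 at 63.6. The largest SD of a group was 1.16, for Trh in 26-week BPN/3J. The 26-week groups include the step between the array sets, whose part in the spread was not tested. In BPH/2J and BPN/3J, Crh had SDs of 0.16 and 0.08 at 6 weeks and 0.36 and 0.47 at 26 weeks. Those of Crhr1 were 0.15 and 0.05, then 0.25 and 0.30, and those of Trhr 0.14 and 0.21, then 0.32 and 0.48. In BPH/2J, Trh went the other way, from 0.66 to 0.45, and Crhr2 stayed at 0.21.

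The ligand Trh and its receptor Trhr varied together, with r of 0.73 over 24 arrays, 0.77 without the second set and 0.71 at 6 weeks. Trh and Ucn3 did so as well, with r of 0.68, 0.77 and 0.71 over the same arrays. Crh and Trhr had r of 0.80 over 24 arrays but 0.29 at 6 weeks, and Ucn and Crhr1 had 0.71 over 24 arrays but 0.21 at 6 weeks. These last pairs include the step between the array sets.

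**Figure D5:**
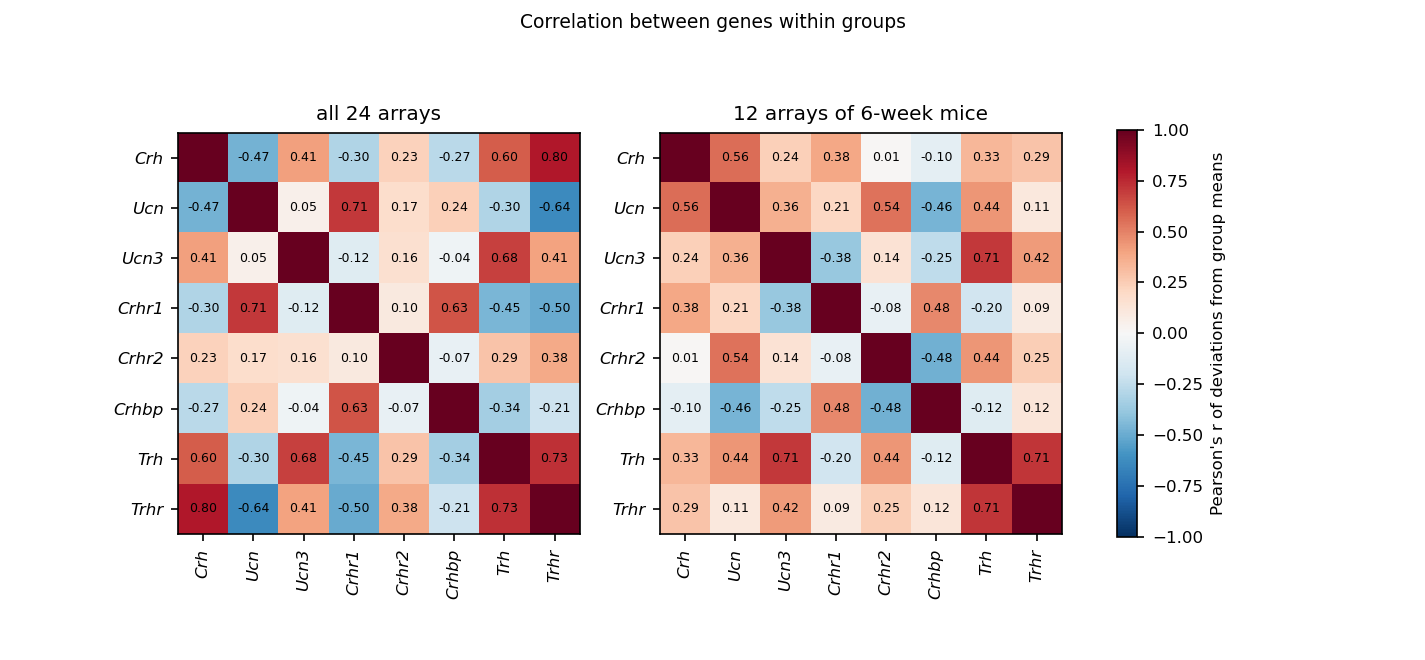
Pearson's r of deviations from group means between each pair of the 8 genes, over all 24 arrays (left) and over the 12 arrays of 6-week mice (right), on a colour scale from -1 to 1. Trh with Trhr and Trh with Ucn3 stay near 0.7 in both panels, and Crh with Trhr does not, at 0.80 over 24 arrays and 0.29 at 6 weeks.

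The genes most like each member, by r of deviations from group means over 24 arrays among all genes, differed in kind. For Ucn3 they were Avp with 0.90 and Oxt with 0.89, the vasopressin and oxytocin genes of magnocellular neurons, then Plcz1 with 0.77, and the first pair held at 0.93 and 0.92 over the arrays of 6 weeks. For Trh they were Ecel1 with 0.89, Scgn with 0.83 and Dlx1 with 0.83, and for Trhr they were Dlx1 with 0.89, 1110051M20Rik with 0.89 and Xpa with 0.89. Over the 6-week arrays these were 0.83, 0.78 and 0.82 for Trh and 0.76, 0.50 and 0.66 for Trhr. The values over 24 arrays include the step between the array sets. Ecel1 encodes a neuronal membrane peptidase, Scgn the calcium-binding protein secretagogin, and Dlx1 a homeobox factor of forebrain inhibitory neurons.

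For Crhbp the closest gene was Ebf3, a transcription factor, with 0.85, then Psmf1 with 0.79 and Eid2 with 0.78. Over the 6-week arrays these were 0.82, 0.58 and 0.58. Crh had Gm17484, Pcdh18 and Nit2 at 0.85, 0.82 and 0.81, which over the 6-week arrays were 0.41, 0.41 and 0.61. The nearest genes of Ucn were Gm10612, Prss48 and Slc25a10 at 0.90, 0.89 and 0.88. Those of Crhr1 were Card10, Panx2 and Ppif at 0.91, 0.90 and 0.90, and those of Crhr2 were Olfr600, Nynrin and Olfr678 at 0.82, 0.72 and 0.72. In the same order, the 6-week arrays gave 0.84, 0.68 and 0.77 for Ucn, 0.83, 0.67 and 0.82 for Crhr1 and 0.72, 0.71 and 0.67 for Crhr2.

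The machinery that cuts and stores neuropeptides was higher in part in 6-week BPH/2J. Of 13 measured genes of this list, 4 were higher and 0 lower at 6 weeks, where 7.42% of all genes were called, with a median difference of 0.16 beside 0.01 over all genes. Chga, the granule protein chromogranin A, was higher by 0.54 ± 0.09 (SE, adjusted p = 0.000141 by limma), and Pam, which amidates peptides such as Trh and Crh, by 0.39 ± 0.08 (adjusted p = 0.00341 by limma). Qpct, which makes the cyclised end that the Trh peptide carries, was higher by 0.39 ± 0.12 (adjusted p = 0.0379 by limma), and the prohormone convertase Pcsk1 by 0.32 ± 0.10 (adjusted p = 0.0392 by limma). At 26 weeks, where 2.67% of all genes were called, Chga alone passed, at 0.50 ± 0.09 (SE, adjusted p = 0.000497 by limma), and the Pcsk1 difference was -0.24 ± 0.10 (adjusted p = 0.26 by limma). Older mice had lower values in 5 of the 13 genes in BPH/2J, against 8.64% of all genes, and in 3 of 13 in BPN/3J, against 7.66%, with none higher, among them Pam at -0.49 and Pcsk1 at -0.54 in BPH/2J and Vgf at -0.36 and Pcsk1n at -0.59 in BPN/3J. Hypothalamus and thalamus markers moved in the comparisons at 6 weeks and between ages in BPH/2J, oligodendrocyte markers at 6 weeks and between ages in BPN/3J, and their part was not tested.

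Among 19 measured genes of thyroid hormone handling and response, the 6-week comparison found 3 higher in BPH/2J and 2 lower, where 7.42% of all genes were called, and the 26-week comparison 1 of each, where 2.67% were. In the 6-week comparison 9 of 14 hypothalamus markers were higher and 14 of 14 thalamus markers lower, and their part was not tested. Thrsp, a thyroid hormone responsive gene, was higher at both ages, by 0.65 ± 0.12 at 26 weeks and 0.64 ± 0.12 at 6 weeks (SE, adjusted p = 0.000919 and 0.000742 by limma). Slco1c1, which carries thyroxine across the blood-brain barrier, was lower at both ages, with differences of -0.39 ± 0.11 at 26 weeks and -0.54 ± 0.11 at 6 weeks (SE, adjusted p = 0.0467 and 0.00142 by limma). Trhr2, the second thyrotropin releasing hormone receptor of rodents, which is strong in thalamus, was lower at 6 weeks by 0.62 (-0.62 ± 0.12, adjusted p = 0.00145 by limma), beside the 14 lower thalamus markers. The thyrotropin receptor gene Tshr was also called higher at 6 weeks (adjusted p = 0.00702 by limma), but it lay below the level of little signal on all 6 BPN/3J arrays and above it on 5 of 6 BPH/2J arrays, so no size is given.

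The other thyroid genes followed by name did not differ between strains beyond the threshold. The deiodinase Dio2, which activates thyroxine, differed by -0.06 at 26 weeks and by 0.00 at 6 weeks. Dio3, the deiodinase that inactivates it, was above the level of little signal on 2 of 6 BPH/2J and 1 of 6 BPN/3J arrays at 26 weeks and on 5 of 6 and 4 of 6 at 6 weeks in the same strains, so its differences are not given. Trhde, the enzyme that degrades the Trh peptide, differed by 0.03 at 26 weeks and 0.36 at 6 weeks (adjusted p = 0.966 and 0.132 by limma). The receptor Thrb differed by 0.29 at 26 weeks and 0.38 at 6 weeks (adjusted p = 0.409 and 0.11 by limma). With age, 2 of the 19 were higher and 3 lower in BPH/2J, Dio3 among the lower (adjusted p = 0.0106 by limma), where 16.9% of all genes were called, and 1 was higher and 3 lower in BPN/3J, where 12.3% were, Rxrb being lowest at -0.47.

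Downstream of the receptors, 28 genes of cyclic AMP and phospholipase signalling were measured. At 6 weeks 4 were lower and 0 higher in BPH/2J, where 7.42% of all genes were called: the adenylyl cyclases Adcy1, at -1.17 ± 0.18, and Adcy8, at -0.32 ± 0.07, the phospholipase Plcb4, at -0.52 ± 0.11, and the phosphodiesterase Pde4d, at -0.28 ± 0.06 (SE, adjusted p = 9.52e-05, 0.0037, 0.00239 and 0.00301 by limma). The 14 thalamus markers and 5 of 11 oligodendrocyte markers were lower in this comparison too, and their part was not tested. At 26 weeks 0 of 28 passed between strains by limma, against 2.67% of all genes, and 1 had an unadjusted p below 0.05, against 12.5% of all genes. With age 4 were higher and 6 lower in BPH/2J, against 16.9% of all genes called, and 0 higher and 3 lower in BPN/3J, against 12.3%, with Adcy3 lower in both strains, at -0.37 and -0.21.

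On the side of glucocorticoid feedback, 14 genes were measured, and Fkbp5 was the only one of them called between strains. Of all genes 7.42% were called at 6 weeks, so the share of this list was close to that, and 2.67% at 26 weeks. Fkbp5, a chaperone of the glucocorticoid receptor that the hormone induces, was higher in BPH/2J by 0.37 ± 0.09 at 26 weeks and 0.41 ± 0.09 at 6 weeks (SE, adjusted p = 0.0155 and 0.00351 by limma). The receptor gene Nr3c1 differed by 0.06 at 26 weeks and -0.19 at 6 weeks (adjusted p = 0.875 and 0.207 by limma). With age 5 of 14 were higher and 0 lower in BPH/2J, against 16.9% of all genes called, and 2 higher and 0 lower in BPN/3J, against 12.3%. In the same comparisons 13 of 14 thalamus markers were higher and 7 of 14 hypothalamus markers lower in BPH/2J, and 5 of 11 oligodendrocyte markers were lower in BPN/3J, and their part was not tested. Hsd11b1, which regenerates active glucocorticoid, and Dusp1 were called in both strains, at 0.53 and 0.76 in BPH/2J and 0.48 and 0.68 in BPN/3J.

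Of the 9 paraventricular genes, Brs3 alone passed between strains, at 0.99 ± 0.20 at 6 weeks (SE, adjusted p = 0.00227 by limma), where 7.42% of all genes were called. At 26 weeks 0 passed, against 2.67% of all genes, and 4 had an unadjusted p below 0.05, against 12.5% of all genes. Avp differed by 1.17 ± 0.42 at 26 weeks and 0.70 ± 0.42 at 6 weeks (SE, adjusted p = 0.174 and 0.416 by limma). The factors Sim1 and Otp, which specify the neurons that make Crh and Trh, differed between strains by 0.07 and 0.20 at 26 weeks and by 0.27 and 0.17 at 6 weeks, and none of these passed. With age Arnt2, Sim1 and Brs3 were lower in BPH/2J, at -0.28, -0.42 and -0.59, where 8.64% of all genes were called lower. In the same comparison 7 hypothalamus markers were lower, Sim1 among them, and their part was not tested. In BPN/3J 0 of 9 passed by limma, against 12.3% of all genes, and 3 had an unadjusted p below 0.05, against 29.3% of all genes. Pomc, which encodes the precursor of corticotropin and is made in the arcuate nucleus, was higher in BPH/2J at 6 weeks by 1.54 ± 0.36 (SE, adjusted p = 0.00677 by limma) and differed by -0.20 ± 0.36 at 26 weeks (SE, adjusted p = 0.902 by limma).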

How the data were processed

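The deposited log2 values of 34760 probe sets on 24 arrays were made by the authors with RMA, as the submitters' processing notes state; limma is named there too. The sources used here give no tool versions and no genome build. RMA corrects background, equalises the arrays' distributions and summarises probes, so a difference is measured against the rest of the array. The number of arrays limits the precision. The mice of a group are separate samples, per the design text, which once gives the normotensive strain another suffix; the sample labels' name was kept.

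Of the probe sets, 21640 had 1 gene symbol in the platform annotation, 1321 several and 11799 none. Where a gene had several probe sets, the one with the highest mean was used. limma 3.58.1 in R 4.3.3 fitted a mean per group, with 20 residual degrees of freedom, gave strain, age and interaction contrasts, and adjusted p over 19937 genes at a threshold of 0.05. The code was tested on simulated data. The 8 genes, the 13 gene lists and the tests were chosen with earlier results of these data known. Named genes are the 8 genes, the 3 genes most like each, up to 4 called genes per pathway list and comparison, and a fixed set of companions, of which Pcsk2 was not measured here.

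Same-numbered 26-week arrays of the strains correlated in their deviations at 0.13 to 0.44, over 0.1 in all 6 pairs. In 3 of these pairs the same number was also the best match. The labels do not say what a number marks. The differences and p-values reported come from a fit without pairs in every comparison, and fits with the replicate number as a block are alternatives. No 2 arrays of a group held the same values, with mean absolute differences of at least 0.12. The second set of 26-week arrays was found from 9283 genes with a mean above 7, so the step in level between the sets is given with no test. Alternatives were other filters, normalizations, fits and blocks, marker means as covariates, and leaving out each array.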

Additional observations from a re-analysis of the deposited data

Results flagged for a closer look

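In 3 of 32 groups of 6 arrays, 8 genes in 4 groups each, the gap between 1 extreme array and its neighbour took up an unusually large part of the group's range (Dixon's test). Chance alone flags about 1 in 20 groups. Ucn3 was 4.91 in replicate 3 of BPH/2J at 26 weeks, where the paraventricular and hypothalamus list means were the lowest of the group, 7.03 and 7.24, and the cortex and striatum and the choroid plexus and ependyma list means the highest, 7.98 and 7.74. Crhr2 was 5.75 in replicate 2 of BPH/2J at 6 weeks, the array with the thalamus list mean of 9.18. Trh was 6.70 in replicate 5 of BPN/3J at 6 weeks, where the hypothalamus list mean was the lowest of the group, 6.95, and the thalamus list mean the highest, 9.53. What part these marker levels have in the outlying values was not tested.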

How the results depend on the processing

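Of 622 recomputed values of single genes and comparisons, 576 kept their side of the threshold (34 of these changed sign while uncalled), 41 became called, 4 lost their call and 1 reversed: Trh between ages in BPH/2J was 0.84 with the hypothalamus marker mean as covariate, against -0.49 as reported. At 6 weeks the strain comparison called 0 of the 8 genes as reported; it called 1 with genes of mean at least 6 (Trh), median centring (Crhr2), the replicate block (Trh) or the paraventricular mean (Ucn3), and 2 (Crhr2 and Trh) with quantile normalization again, only the groups compared, array weights, the term for the second set, the first or second set only, or the block among 26-week arrays. At 26 weeks it called 1 in place of 0 with the hypothalamus mean (Trhr) or the second set only (Trh). Age in BPH/2J called 2 in place of 1 with genes of mean at least 6 or the paraventricular mean, 4 with array weights, the hypothalamus mean, the term for the second set, the first set only or the block among 26-week arrays, and 0 with the thalamus mean or the second set only. Age in BPN/3J called 3 in place of 1 with array weights or the first set only, 2 with the paraventricular mean, and 0 with the choroid mean or the second set only. The causes were not tested. Leaving out 1 array at a time gave 0 to 2 members for strain at 6 weeks, 0 at 26 weeks and for the interaction, 0 to 4 for age in BPH/2J and 0 to 3 for age in BPN/3J.

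Counts over all genes moved by more than 1.5 times as follows. Strain at 6 weeks called 1479 genes as reported, 2322 with only the groups compared, 3725 with array weights, 2460 with the first set only, 2276 with the block among 26-week arrays, and 144, 830 and 206 with the thalamus, paraventricular and hypothalamus means. Strain at 26 weeks called 532 as reported, 248 with only the groups compared, 881 with the term for the second set, 283 with the second set only and 958 with the block. The interaction called 6 as reported and 86 with genes of mean at least 6, 34 with quantile normalization again, 27 with the replicate block, 683 with array weights, 31 with a robust trend, 63 with the paraventricular mean, 251 with the term for the second set, 19 and 13 with the first and second set only, 139 with the block among 26-week arrays, 1 with the choroid mean and 0 with the thalamus or hypothalamus mean. Age in BPH/2J called 3362 as reported, 7475 with array weights, 8 with the thalamus mean, 5298 with the term for the second set, 7843 and 689 with the first and second set only and 5579 with the block. Age in BPN/3J called 2445 as reported, 6416 with array weights, 228 with the choroid mean, 4777 with the term for the second set, 6702 and 93 with the first and second set only and 5003 with the block. With 1 array left out, the counts ran from 1034 to 1961 and 428 to 721 for strain at 6 and 26 weeks, 0 to 496 for the interaction, and, between ages, 2138 to 4838 in BPH/2J and 1034 to 4230 in BPN/3J. The terms on array sets, the paraventricular and hypothalamus means and the block among 26-week arrays were chosen after seeing the data. The block numbered over all arrays changed no other call among the 8 genes than that of Trh at 6 weeks (1.27, adjusted p = 0.0467 by limma).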
